A study of Oncorhynchus gorbuscha with 76 samples.

Results

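Testis and head kidney of spawning male pink salmon (Oncorhynchus gorbuscha) were compared by RNA sequencing, to find the genes whose RNA was more abundant in the testis at the end of the reproductive season and those more abundant in the head kidney. The libraries were taken by their labels, with earlier results of these data known. They are, from spawning males, 5 gonad libraries (numbers 6, 7, 8, 9 and 10) and 4 head kidney libraries (6, 7, 9 and 10). These are 9 of the 76 libraries of a study of muscle, head kidney and gonads from fish of both sexes labelled ocean, river or spawning. No strain, age, allele or treatment agent is given for any group, and all samples share preservation in RNALater, Trizol extraction and poly(A) selection. The labels say gonads, not testis, for the male tissue, and do not say whether the fish had released their milt or whether equal numbers mark 1 fish. Libraries are called testis 6 or head kidney 6 by number below, and where values are listed they stand in the order 6, 7, 8, 9 and 10 for testis and 6, 7, 9 and 10 for head kidney. Ocean males and river males (each 5 testis and 4 head kidney libraries), spawning male muscle (3 libraries) and spawning ovary (5 libraries) serve as further comparisons.

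Pink salmon spawn once and die. In the salmon testis germ cells develop in cysts enclosed by Sertoli cells, which respond to follicle-stimulating hormone, while Leydig cells between the tubules respond to luteinizing hormone and make steroids and insulin-like peptide 3. The head kidney of a fish is its main site of blood formation, comparable to the bone marrow of mammals, and also contains steroid-producing interrenal cells, chromaffin cells and, to a varying degree, kidney tubules. At spawning, meiosis is largely over in salmon testis and the tubules hold sperm and the fluid around it.

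Total counts were 12719694 to 15577389 in the testis libraries and 14375129 to 18597971 in the head kidney libraries, with 24679 to 26130 and 23935 to 24320 genes at 10 counts or more. Correlations of log2 CPM were 0.912 to 0.947 among testis libraries, 0.911 to 0.966 among head kidney libraries and 0.462 to 0.539 between the tissues. Of 26280 genes with enough counts to test, 9011 were called higher in testis and 8234 lower at an adjusted p under 0.05 in edgeR's quasi-likelihood test, which is 65.6% of the genes tested. The median log2 fold change of all tested genes was 0.09. Levels are CPM (counts relative to the library total, scaled by TMM factors), fold changes are log2 of testis over head kidney with their standard error, and adjusted p-values come from the same edgeR test with Benjamini-Hochberg adjustment. In these bulk samples fewer cells of a type and less RNA per cell cannot be told apart. CPM is also a share of each library, and meiosis genes summed to 9374 to 17335 CPM in ocean testis and 64.9 to 95.3 CPM in spawning testis. Whether other genes rose from ocean to spawning only as a share was not tested. Nothing in the labels says how the replicates were collected, so the p-values measure the spread between these libraries. No genome or sequence table was used, so no gene position or sequence is given. Against their labels, the testis libraries carried Sertoli and Leydig cell genes in quantity, had defining germ cell genes such as sycp3 and piwil1 at 0 CPM while a few other meiosis and axoneme genes were still measured (terb1 up to 55.0 CPM, dnah3 up to 80.5 CPM), and the head kidney libraries carried blood cell genes.

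Hormone and receptor genes of the testis somatic cells were among those farthest above the head kidney. All 7 Sertoli cell genes that could be tested were called higher in testis, against 34.3% of all genes tested, and 3 further matched genes were too low to test. Groups did not overlap for 6 of the 7, against 30.1% of all genes with testis above head kidney. Of the 7 genes, 2 had no count in head kidney, and others, fshr among them, were also too low there to pass the filter. These genes passed the filter through testis alone. For such genes a higher call was nearly fixed, so these shares are no independent support. Among the better expressed genes with a symbol, the largest fold change was that of insl3, the insulin-like peptide hormone of Leydig cells, at 23963, 33959, 22119, 16948 and 13166 CPM in testis and 0, 0, 0.0656 and 0.113 CPM in head kidney. Testis pooled counts of insl3 exceeded the 3 head kidney counts by a ratio of 473372 (95% interval 161979 to 2295428), an interval that covers counting error only. The lowest testis library was above every head kidney library by a wide margin, and no head kidney library reached 1 CPM.

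The gonadotropin receptor genes were on in every testis library. The receptor of follicle-stimulating hormone, fshr, stood at 293, 196, 239, 226 and 278 CPM in testis and 0.243, 0.206, 0.0656 and 0.0564 CPM in head kidney, a log2 fold change of 10.69 ± 0.37 (adjusted p = 5.21e-08). The receptor of luteinizing hormone, lhcgr, stood at 216, 286, 257, 212 and 172 CPM in testis and 0.546, 2.6, 1.44 and 2.2 CPM in head kidney, a log2 fold change of 7.07 ± 0.44 (adjusted p = 5.65e-07). Neither receptor gene had overlapping groups, and testis values of each lay within a factor of 2 of one another. Both were far lower as a share of counts in ocean testis, at 5.88 to 8.29 CPM for fshr and 0.937 to 2.72 CPM for lhcgr. The testis minus head kidney difference was larger at spawning than in ocean fish by 6.09 ± 0.66 (adjusted p = 4.66e-07) on the log2 scale for fshr and by 8.64 ± 1.37 (adjusted p = 3.25e-05) for lhcgr. The median of this stage difference over all 30011 genes tested was 0.42, and 0.28 with RLE scaling.

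dmrt1, a transcription factor of testis differentiation, and gata4, a transcription factor of gonadal somatic cells, had no count in any head kidney library. The testis values of dmrt1 were 275, 268, 184, 179.9 and 211 CPM, at least 4771-fold higher than head kidney when 3 counts over the group are taken as the floor. For gata4 they were 56.7, 77.5, 59.4, 63.9 and 44.3 CPM, at least 1288-fold higher. Every testis library was thus above every head kidney library for both genes, and neither had a count in spawning muscle.

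Anti-Müllerian hormone, amh, a Sertoli cell product that restrains germ cell development, stood at 511, 239, 334, 259 and 121 CPM in testis and 0.425, 0.617, 14 and 0.79 CPM in head kidney, a log2 fold change of 6.21 ± 1.15 (adjusted p = 0.000832). Head kidney 9 was high for amh and the other 3 head kidney libraries were below 1 CPM. Without head kidney 9 the fold change was 8.85 ± 0.64 (adjusted p = 3.67e-06). Desert hedgehog, dhh, a signal from Sertoli to interstitial cells in mammals, stood at 280.4, 203, 233, 111 and 242 CPM in testis and 1.58, 6.51, 3.68 and 6.6 CPM in head kidney, a log2 fold change of 5.54 ± 0.49 (adjusted p = 4.86e-06), with no overlap. The activin subunit gene inhbaa, at 0.458 to 4.59 CPM in testis, and the Sertoli and podocyte factor wt1b, at 0.262 to 6.59 CPM, were called higher at low levels, with log2 fold changes of 3.66 ± 0.86 (adjusted p = 0.0036) and 3.89 ± 1.17 (adjusted p = 0.0139). Every spawning testis library was above every ocean testis library for 6 of the 7 Sertoli cell genes in the stage test, against 36.6% of the 30011 genes in that test.

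**Figure D1:**
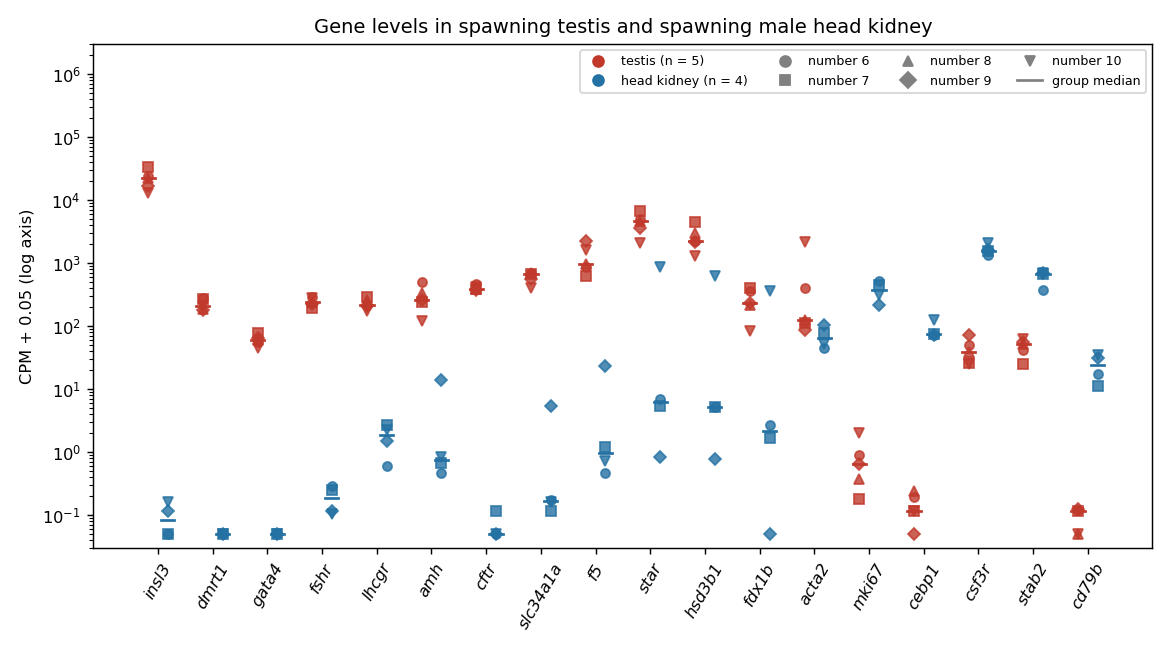
Levels of 18 genes (CPM + 0.05, log axis) in 5 spawning testis libraries (red) and 4 spawning male head kidney libraries (blue), with the library number given by the symbol and group medians as lines. insl3 lies between 13166 and 33959 CPM in the testis libraries, dmrt1 and gata4 are at 0 CPM in every head kidney library, and head kidney 10 stands far above the other head kidneys for star (876 CPM), hsd3b1 and fdx1b.

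Among the other Leydig and interstitial genes, ptch1, the hedgehog receptor, was also called higher (1.66 ± 0.62, adjusted p = 0.0371), at 3.67 to 15.4 CPM in testis and 0.722 to 4.25 CPM in head kidney. With insl3 and lhcgr it made 3 higher of 6 tested, and 1 was called lower, against 34.3% higher and 31.3% lower among all genes. That gene, igf3, an insulin-like growth factor known in fish for its action on spermatogonia, stood at 3.1, 6.36, 3.95, 1.53 and 1.86 CPM in testis and 9.04, 8.29, 9.12 and 8.8 CPM in head kidney, a log2 fold change of -1.39 ± 0.38 (adjusted p = 0.00884). Every testis library was below every head kidney library. Ocean testis had 9.62 to 15.4 CPM, and the testis minus head kidney difference changed from ocean to spawning by -1.99 ± 0.46 (adjusted p = 0.00107) on the log2 scale. hsd17b3, an enzyme of testosterone synthesis in mammals, was at 0.648 to 2.73 CPM in testis and 2.47 to 3.95 CPM in head kidney and was not called (-0.96 ± 0.43, adjusted p = 0.0737).

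Several steroid synthesis genes, star and hsd3b1 above all, were abundant in every testis library, but 1 head kidney library carried them too. The cholesterol transport gene star, which starts steroid synthesis, stood at 4959, 6771, 4585, 3578 and 2075 CPM in testis and 6.98, 5.41, 0.788 and 876 CPM in head kidney. Head kidney 10 was high and the other 3 were low, and no head kidney library overlapped the testis range. The log2 fold change was 4.30 ± 1.74 (adjusted p = 0.0502), not called. Without head kidney 10 it was 9.95 ± 0.91 (adjusted p = 1.71e-05).

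Head kidney 10 was also the high library for neighbouring steps of the pathway. The dehydrogenase gene hsd3b1 stood at 2214, 4542, 2968, 2180.3 and 1319 CPM in testis and 5.1, 5.14, 0.722 and 618 CPM in head kidney, a log2 fold change of 4.07 ± 1.68 (adjusted p = 0.0537), and without head kidney 10 the value was 9.48 ± 0.87 (adjusted p = 1.71e-05). The electron carrier gene fdx1b stood at 366, 409, 218, 231 and 84.7 CPM in testis and 2.61, 1.64, 0 and 362 CPM in head kidney, a log2 fold change of 1.51 ± 1.60 (adjusted p = 0.424). Here head kidney 10 lay within the testis range. Without it, fdx1b gave 7.50 ± 1.03 (adjusted p = 0.000209). The steroidogenic transcription factor gene nr5a1b stood at 147, 176, 137, 108 and 82.6 CPM in testis and 0.364, 0.0685, 0.0656 and 40.6 CPM in head kidney, a log2 fold change of 3.65 ± 1.43 (adjusted p = 0.0444), a call lost in 8 of 9 fits that left out 1 library and kept without head kidney 10, at 9.47 ± 0.54 (adjusted p = 1.44e-06).

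The summed level of 5 interrenal cell genes, all of which also stand in the steroid synthesis list, was 1925 CPM in head kidney 10, against 14.9 to 31.8 CPM in the other head kidney libraries and 3590 to 12044 CPM in testis. The values without this library are those given above. Of the 11 steroid synthesis genes tested, 4 were called higher in testis and 1 lower with all libraries. The share higher was near the 34.3% of all genes. Without head kidney 10, 7 were called higher. That fit tested 26936 genes in all, against 26280, so the 7 need not be of the same 11 genes. In ocean fish too 1 head kidney library was high for star, at 2029.9 CPM, against a median of 0.387 CPM. The stage difference of star was 9.53 ± 3.13 (adjusted p = 0.0135) with all libraries and -1.55 (adjusted p = 0.563) without ocean head kidney 9, so the direction rested on that library.

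The mitochondrial reductase gene fdxr, at 193, 146, 64, 86.3 and 28.2 CPM in testis and 16.7, 17.1, 13.3 and 27.9 CPM in head kidney, was called higher, with a log2 fold change of 2.46 ± 0.51 (adjusted p = 0.00171). hsd3b7, a bile acid enzyme of the family of hsd3b1, was higher by 2.42 ± 0.18 (adjusted p = 1.66e-06). The lipoprotein receptor gene scarb1 was lower in testis, at 0 to 1.33 CPM against 2.31 to 4.11 CPM (-2.90 ± 0.85, adjusted p = 0.012). Sex steroid receptors were higher in testis in 3 of 4 genes tested, against 34.3% of all genes. The progestin receptor gene pgr stood at 77.6, 64.3, 25.9, 58.5 and 61.2 CPM in testis and 0.0607, 0.137, 0.131 and 0.226 CPM in head kidney, a log2 fold change of 8.60 ± 0.47 (adjusted p = 2.48e-07). It passed the filter through testis alone, so its higher call was nearly fixed and the share is no independent support. The oestrogen receptor genes esr1 and esr2a stood at 41.3 to 70.1 and 74.2 to 182 CPM in testis, with fold changes of 4.73 ± 0.89 (adjusted p = 0.000893) and 7.39 ± 0.60 (adjusted p = 2.77e-06) and no overlap. No row was matched by symbol for ar, cyp11a1 or cyp17a1.

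**Figure D2:**
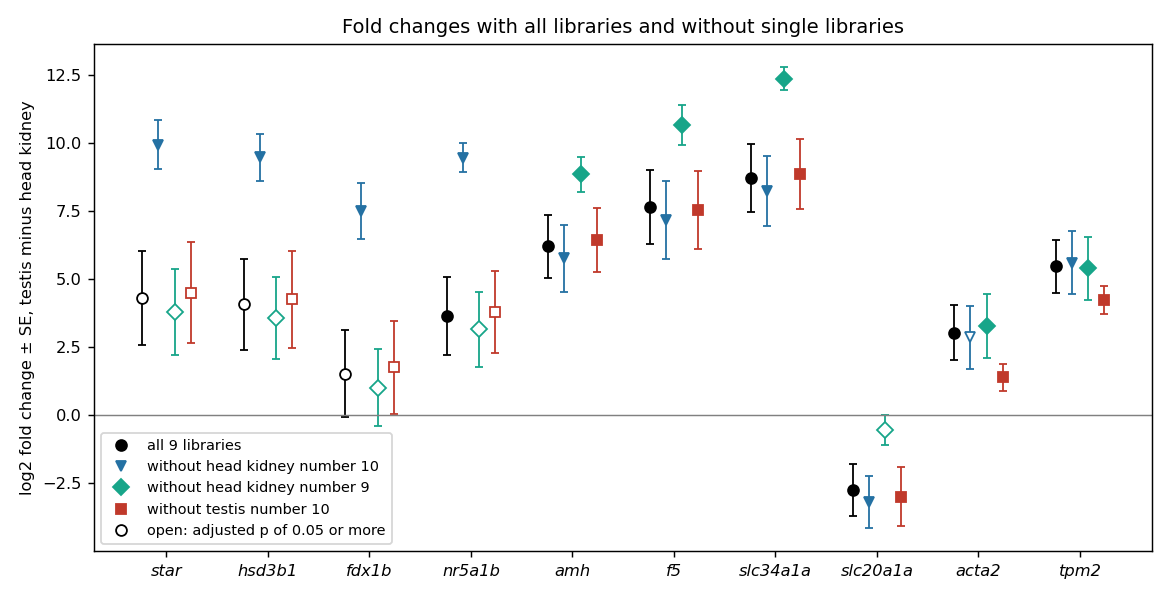
Log2 fold change of testis over head kidney (y axis, ± SE) for 10 genes, with all 9 libraries (black) and without head kidney 10 (blue), head kidney 9 (green) or testis 10 (red), with open symbols where the adjusted p was 0.05 or more. star went from 4.30 to 9.95 and fdx1b from 1.51 to 7.50 without head kidney 10, slc34a1a from 8.73 to 12.4 without head kidney 9, and acta2 from 3.03 to 1.39 without testis 10.

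Some transport genes known from epithelia had large differences, picked here by the size of the difference or as members of the renal tubule list. Of 8 renal tubule genes tested, 3 were called higher and 3 lower, with a median of -1.02, which does not set the list apart from the 34.3% and 31.3% of all genes. The chloride channel gene cftr stood at 459.7, 384, 390.4, 380.1 and 421 CPM in testis and had 1 count in head kidney, a ratio of 26059 (95% interval 4677 to 1029304). The phosphate transporter gene slc34a1a, known from the mammalian kidney tubule, stood at 687, 662, 699, 554 and 399 CPM in testis and 0.121, 0.0685, 5.38 and 0.113 CPM in head kidney, a log2 fold change of 8.73 ± 1.25 (adjusted p = 0.000145). The amino acid transporter gene slc6a18 stood at 126, 80.2, 56.3, 118 and 101 CPM and was at least 2057-fold higher, with no count in head kidney, none in ocean testis and none in muscle. For all 3 genes every testis library was above every head kidney library.

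Its chaperone in mammals, cltrn (collectrin), stood at 208, 121, 202, 334 and 122 CPM in testis and had no count in head kidney, at least 4213-fold higher. pkd1b, of the polycystin family of cilium proteins, stood at 151, 620.2, 688, 644 and 322 CPM and had 1 count in head kidney, a ratio of 31126 (95% interval 5586 to 1229433). The endocytic receptor gene lrp2a stood at 52.1, 48.9, 57.2, 42.5 and 66 CPM in testis and 0.971, 1.17, 0.919 and 0.959 CPM in head kidney, a log2 fold change of 5.72 ± 0.20 (adjusted p = 5.21e-08). Testis 6 was the lowest for pkd1b, and the testis values of lrp2a were tightly grouped.

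The creatine transporter gene slc6a8 stood at 359, 107, 235, 498 and 456 CPM in testis and 0.971, 0.548, 1.51 and 0.169 CPM in head kidney, a log2 fold change of 8.69 ± 0.73 (adjusted p = 3.69e-06), while ocean testis had 0 to 0.224 CPM and spawning muscle 310.3 to 812 CPM. Its testis minus head kidney difference was larger at spawning than in ocean fish by 13.17 ± 1.24 (adjusted p = 9.67e-08). For slc34a1a that stage difference was 14.51 ± 2.48 (adjusted p = 7.4e-05), for lrp2a 5.86 ± 0.75 (adjusted p = 3.41e-06). The coagulation factor V gene f5, made by liver and platelets in mammals, stood at 871, 620.5, 977, 2219 and 1596 CPM in testis and 0.425, 1.17, 22.9 and 0.677 CPM in head kidney, a log2 fold change of 7.64 ± 1.37 (adjusted p = 0.00066), with a stage difference of 10.38 ± 1.96 (adjusted p = 0.000198). All 4 were at 0.884 to 3.53, 2.91 to 4.81, 0 to 0.224 and 3.64 to 7.88 CPM in ocean testis, in the order slc34a1a, lrp2a, slc6a8 and f5. For slc34a1a, slc6a8 and f5 the stage difference exceeded the difference at spawning. It therefore also holds higher ocean levels in head kidney than in testis, not a testis change alone. The renal tubule list summed to 89.8 to 2339 CPM in ocean head kidney and 45.6 to 401 CPM in spawning head kidney.

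Head kidney 9 was the highest head kidney library for slc34a1a, f5 and several kidney tubule genes. slc12a3, the salt cotransporter of the distal tubule, had no count in testis and 0, 23.6, 76.7 and 0 CPM in head kidney, and did not pass the filter of the test. slc20a1a, a phosphate transporter, stood at 0.494, 1.77, 2.46, 1.68 and 3.26 CPM in testis and 1.52, 4.39, 44 and 2.54 CPM in head kidney, and its call as lower in testis (-2.75 ± 0.96, adjusted p = 0.0272) was lost in 4 of 9 fits that left out 1 library. Of these, the fit without head kidney 9 moved the value most, to -0.56 ± 0.56 (adjusted p = 0.404), and the others were those without testis 6, 7 or 9. The vitamin B12 receptor gene cubn stood at 2.06, 3.43, 26.2 and 1.92 CPM in head kidney. The summed level of the 31 tubule genes was 401 CPM in head kidney 9 and 45.6 to 103 CPM in the others. Testis genes were mixed in that library: insl3 was at 0.0656 CPM and dmrt1 at 0 CPM, while amh was raised at 14 CPM. The Sertoli cell list summed to 18.8 CPM in head kidney 9 and to 2.25, 7.74 and 8.12 CPM in head kidney 6, 7 and 10. Carry-over of testis tissue was not tested. Without head kidney 9 the fold change of slc34a1a was 12.38 ± 0.42 (adjusted p = 2.5e-07) and that of f5 10.68 ± 0.73 (adjusted p = 2.68e-06), larger than with it. Solute carriers as a family had 53 of 112 tested genes higher and 32 lower, with a median of 0.35, beside 34.3% higher and 31.3% lower among all genes. Members with no count in head kidney, such as slc6a18, passed the filter through testis alone, so these shares are no independent support.

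A further 3 of the 10 genes with the largest fold changes in testis also had no count in head kidney. The secreted peptide gene prok2 stood at 139, 338, 204, 208 and 140.2 CPM and was at least 4389-fold higher, the synaptic adhesion gene lrfn4a at 319, 138, 176, 146 and 148 CPM and at least 3958-fold higher, and the leukotriene synthase gene ltc4s at 175, 111, 160.0, 167 and 123 CPM and at least 3143-fold higher. Ocean testis had 0.196 to 0.574 CPM of prok2, 3.23 to 9.66 CPM of lrfn4a and 13.8 to 22.4 CPM of ltc4s. So each of them was more abundant in every spawning testis library than in any ocean testis library.

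A wider set of 315 genes was called higher in testis with a mean of at least 10 CPM there and under 0.5 CPM in both head kidney and muscle, 1.2% of the genes tested. Of these 62 carry a gene symbol and 253 only a LOC number, and 57 had no count in head kidney. Many were not constant features of a testis: 101 were under 0.5 CPM in ocean testis and 44 were at 10 CPM or more there. In spawning ovary 97 were at 10 CPM or more and 67 under 0.5 CPM. Shares of all tested genes at these cut-offs were not taken, so these counts do not set the 315 apart from other genes. Examples on in ovary are cftr, at 84.4 to 246 CPM, and cltrn, at 46.9 to 133 CPM, and examples off there are slc6a18, at 0 to 0.0661 CPM, and ltc4s, at 0 to 0.0753 CPM. nos1, which codes for neuronal nitric oxide synthase, was at 188 to 417 CPM in spawning testis, 0.144 to 0.816 CPM in ocean testis and 103 to 209.7 CPM in spawning ovary.

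Spawning muscle served as a second tissue. Testis minus muscle called 10869 of 28073 genes higher (38.7%) and 8015 lower (28.6%), and 5689 genes were higher in testis than in both other tissues, 21.6% of those tested against head kidney. The organic anion transporter gene oatx stood at 207, 296, 417, 454 and 165 CPM in testis, 0.0607, 0, 0.197 and 0.0564 CPM in head kidney and 0 CPM in all 3 muscle libraries. Its fold change over head kidney was 11.80 ± 0.63 (adjusted p = 2.31e-07). The split of calls against muscle depended on the scaling: with library size alone it was 16929 higher and 4291 lower, and the median over all genes went from 0.48 to 1.69.

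Matrix and contractile genes were mostly higher in testis. Of 19 matrix genes tested, 15 were called higher and 0 lower, against 34.3% and 31.3% of all genes, with a median log2 fold change of 2.73. fbn1, a microfibril protein of connective tissue, stood at 756, 616, 1282, 908 and 1515 CPM in testis and 163, 127, 102 and 163 CPM in head kidney, a log2 fold change of 2.87 ± 0.31 (adjusted p = 2.27e-05). col6a1, a chain of collagen VI, stood at 464, 288, 298, 352 and 752 CPM and 56.6, 66.3, 54.9 and 31.8 CPM, a log2 fold change of 3.04 ± 0.36 (adjusted p = 3.78e-05). Neither overlapped, and sparc, a matrix glycoprotein, was likewise higher (2.66 ± 0.50, adjusted p = 0.000903).

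The testis value was highest in testis 10 for each of these 3 genes. The collagen I gene col1a2 stood at 601, 211, 195, 148 and 1414 CPM in testis and 219, 188, 168 and 105 CPM in head kidney and was not called (1.60 ± 0.66, adjusted p = 0.0545). The fibronectin gene fn1a was at 40 to 284 CPM in testis and 58.9 to 161 CPM in head kidney, also not called (0.12 ± 0.56, adjusted p = 0.86). Every spawning testis library was above every ocean testis library for 17 of 19 matrix genes, against 36.6% of all genes. In the test of the stage difference 18 of 19 were called higher, against 38.3% of all genes in that test. The stage difference was 4.65 ± 0.42 (adjusted p = 6.26e-08) for col6a1 and 4.32 ± 0.37 (adjusted p = 3.19e-08) for fbn1.

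Smooth muscle genes were uneven among testis libraries. acta2, smooth muscle actin, stood at 402, 111, 126, 88.1 and 2135 CPM in testis and 45.3, 78.2, 105 and 52 CPM in head kidney, a log2 fold change of 3.03 ± 1.00 (adjusted p = 0.0217), with overlapping groups. Without testis 10 it was 1.39 ± 0.51 (adjusted p = 0.0369), and the call was lost in 3 of 9 fits that left out 1 library, those without head kidney 6, 7 or 10, with a largest adjusted p = 0.0581. tagln, which codes for transgelin, stood at 251, 100.2, 139.7, 70 and 1148 CPM in testis and 109, 96.7, 146 and 68.3 CPM in head kidney and was not called (1.70 ± 0.79, adjusted p = 0.0794). tpm2, a tropomyosin, stood at 191, 59.2, 116, 47 and 816 CPM and 2.91, 6.72, 5.12 and 7.45 CPM, a log2 fold change of 5.47 ± 0.97 (adjusted p = 0.000633), with no overlap. Testis 10 was high for all 3. The sum of the 4 genes of this list was 4184 CPM in testis 10, 223 to 906 CPM in the other testis libraries and 136 to 265 CPM in head kidney. Of the 4 genes 3 were called higher with all libraries, against 34.3% of all genes, and 1 without head kidney 9 and head kidney 10.

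Of 14 blood vessel genes tested, 5 were higher in testis and 5 lower, with a median of 0.51, shares near the 34.3% and 31.3% of all genes. The scavenger receptor gene stab2, a marker of sinusoidal endothelium, stood at 42.3, 25.3, 51.6, 55.8 and 62 CPM in testis and 380.4, 669, 691 and 696 CPM in head kidney, a log2 fold change of -3.68 ± 0.30 (adjusted p = 2.8e-06). The cell adhesion gene pecam1a stood at 25.1, 39.2, 25.4, 33.4 and 36.8 CPM in testis and 12.4, 10.5, 11.5 and 11.3 CPM in head kidney, a log2 fold change of 1.49 ± 0.18 (adjusted p = 4.26e-05). kdr, a receptor of vascular endothelial growth factor, was at 112 to 154 CPM and 89.3 to 124 CPM and was not called (0.35 ± 0.15, adjusted p = 0.0632). All 14 were higher in every spawning testis library than in any ocean testis library, against 36.6% of all genes, and the stage difference was 4.16 ± 0.38 (adjusted p = 5.71e-08) for stab2 and 4.98 ± 0.32 (adjusted p = 1.15e-09) for pecam1a.

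Defining germ cell genes were at or near 0 CPM in spawning testis. Of 25 matched meiosis genes only 9 reached the level needed for the test against head kidney. Of these, 4 were called higher in testis and 3 lower. Of 18 piRNA and germ granule genes only 4 reached that level, with 1 higher and 3 lower. Among all genes tested 34.3% were called higher and 31.3% lower, and the meiosis calls were near those shares. sycp3, a protein of the chromosome axis in meiosis, had no count in any spawning testis library and 307 to 368 CPM in ocean testis. piwil1, which binds piRNAs, and tdrd5, of the germ granule, also had no count in spawning testis, against 157 to 202 CPM and 119 to 210.3 CPM in ocean testis. River testis still had 263 to 424 CPM of sycp3, 46.6 to 172 CPM of piwil1 and 51.2 to 111 CPM of tdrd5.

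The synaptonemal complex gene sycp1 stood at 0, 0.0656, 0, 0.153 and 0.2 CPM in spawning testis, 2648 to 10307 CPM in ocean testis and 6539.7 to 16153 CPM in river testis. smc1b, a meiotic cohesin, stood at 0.0705, 0, 0, 0.0764 and 0 CPM in spawning testis and 1158 to 1564 CPM in ocean testis. The germ cell helicase gene ddx4 (vasa) stood at 0.141, 0.394, 0.0648, 0.229 and 0.666 CPM in testis and 3.64, 2.47, 4.2 and 2.88 CPM in head kidney, a log2 fold change of -3.42 ± 0.55 (adjusted p = 0.000304), so that a gene named for germ cells was higher in the blood-forming tissue. In ocean testis ddx4 was at 777 to 1253 CPM, and the testis minus head kidney difference fell from ocean to spawning by -10.99 ± 0.71 (adjusted p = 1.26e-09) on the log2 scale.

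Every spawning testis library lay below every ocean testis library for 25 of 25 meiosis genes and 17 of 18 piRNA and germ granule genes, against 34.3% of all genes in the stage test. The exception was tdrd7b, a tudor protein, at 8.46 to 18.1 CPM in spawning testis and 2.44 to 5.37 CPM in ocean testis. Below every river testis library were 24 of 25 and 17 of 18. The stage difference was called lower for 15 of 25 meiosis genes, against 25.5% of all genes. Only 9 of these 25 and 4 of the 18 piRNA and germ granule genes passed the filter against head kidney at spawning. The rest, such as sycp3, passed in the stage test only with the ocean libraries. For such genes a lower value at spawning was nearly fixed, so these shares are no independent support. Summed over the meiosis list, spawning testis had 64.9 to 95.3 CPM, head kidney 50.4 to 64.0 CPM and ocean testis 9374 to 17335 CPM.

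A few meiosis genes kept a level above head kidney. msh5, a crossover protein, stood at 6.91, 2.89, 4.86, 2.75 and 4.33 CPM in testis and 0.486, 0.411, 0 and 0.226 CPM in head kidney, a log2 fold change of 3.91 ± 0.67 (adjusted p = 0.000509). terb1, which ties telomeres to the nuclear envelope in meiosis, stood at 8.61, 55, 19.3, 24.7 and 4.79 CPM and 0.546, 0.343, 0.788 and 0.282 CPM, a log2 fold change of 5.51 ± 0.80 (adjusted p = 0.000161). Both were above every head kidney library in every testis library. The recombinase gene dmc1 stood at 1.41, 0.656, 0.712, 1.6 and 1.6 CPM and 1.7, 2.26, 3.48 and 2.2 CPM, and its call as lower (-1.01 ± 0.39, adjusted p = 0.0437) was lost in 6 of 9 fits that left out 1 library. The stage difference was -3.60 ± 0.89 (adjusted p = 0.00205) for msh5 and -7.99 ± 0.63 (adjusted p = 1.25e-08) for dmc1.

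Among the germ granule genes the only one higher in testis, asz1, stood at 1.62, 1.64, 2.98, 1.37 and 1.26 CPM with 1 count in head kidney, a ratio of 115 (95% interval 20.3 to 4574). prdm9, a histone methyltransferase that places meiotic recombination in mammals, was higher by 0.76 ± 0.23 (adjusted p = 0.0155), a call lost in 2 of 9 fits that left out 1 library. cntd1, a crossover cyclin, was higher by 4.03 ± 0.85 (adjusted p = 0.00184), at 0.787 to 4.53 CPM in testis.

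**Figure D3:**
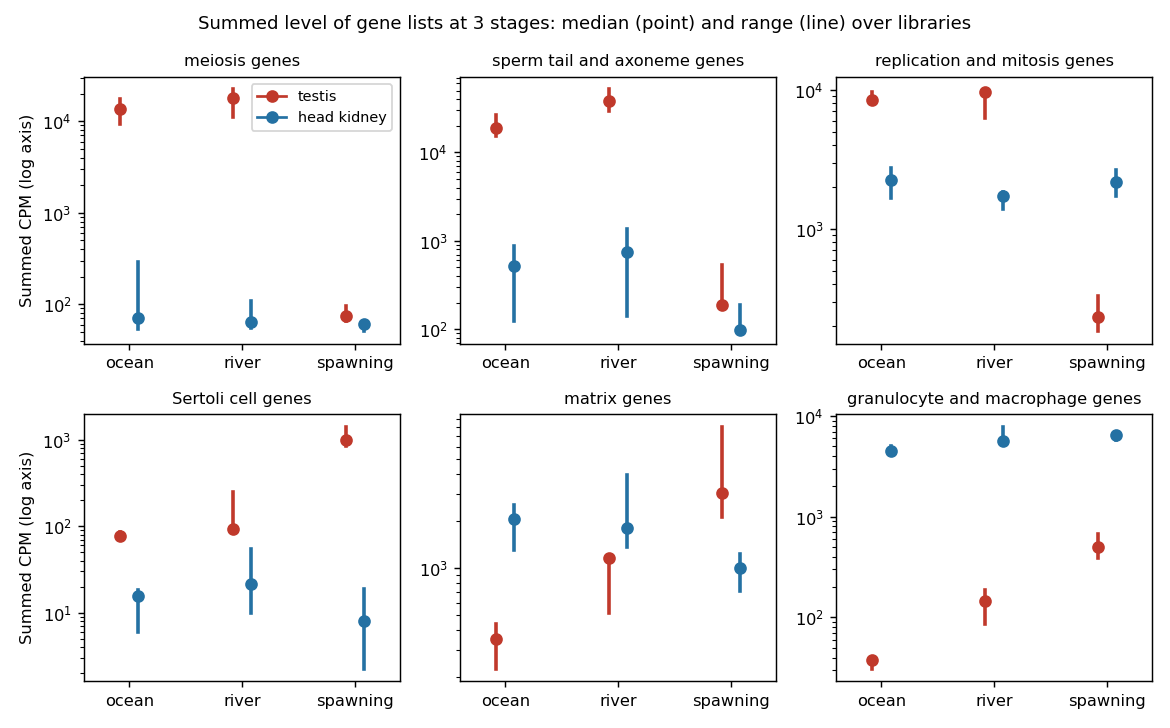
Summed CPM (log axis) of 6 gene lists in testis (red) and male head kidney (blue) at the ocean, river and spawning stages, as the median over libraries (point) and their range (line). Meiosis genes summed to 9374 to 17335 CPM in ocean testis and 64.9 to 95.3 CPM in spawning testis, close to head kidney, while Sertoli cell genes in testis summed to 76.5 to 84.6 CPM in ocean and 841 to 1419 CPM in spawning fish.

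Axoneme and sperm tail genes were low at spawning with 17 of 36 tested genes called above head kidney, against 34.3% of all genes. A further 2 were called lower, the median was 1.22, and the matched genes outside these 36, of 74 in all, were too low to test. Members with almost no count in head kidney, such as dnah3, passed the filter through testis alone. For them a higher call was nearly fixed, so the share is no independent support. Without head kidney 9, the highest head kidney library for this list at 189 CPM summed, 27 were called higher. That fit tested 26910 genes in all, against 26280, so the 27 need not be of the same 36 genes. hydin, a protein of the central pair of the axoneme, stood at 11.1, 6.63, 5.05, 7.64 and 16.6 CPM in testis and 0.303, 0.274, 1.84 and 0.113 CPM in head kidney, a log2 fold change of 3.89 ± 0.75 (adjusted p = 0.00106). dnah3, an axonemal dynein chain, stood at 24, 12.3, 14.2, 80.2 and 80.5 CPM in testis with 2 counts in head kidney, a ratio of 1319 (95% interval 365 to 10894). In ocean testis hydin was at 849.5 to 1353 CPM and dnah3 at 134 to 399 CPM.

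Testis 9 and testis 10 held more of this RNA than the other 3 testis libraries. dnah3 was highest in those, as was spag17, a central pair gene, at 1.55, 1.77, 2.4, 7.33 and 14.2 CPM (3.67 ± 0.79, adjusted p = 0.00201). tekt2, a tektin of the tail, stood at 0.141, 0, 0.194, 8.71 and 17.1 CPM and the sperm membrane gene spaca6 at 0.141, 0, 0, 1.83 and 3.79 CPM in testis, and neither could be tested against head kidney. Summed over the list, testis 9 and testis 10 had 411 and 530 CPM and the others 178 to 190 CPM. No label separates these libraries, and the sum in ocean testis was 15301 to 26359 CPM.

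Members of the list that were lower in testis were cfap43 and efcab1, genes of the axoneme. cfap43 stood at 1.06, 0.459, 1.55, 1.68 and 2 CPM in testis and 25.4, 13.9, 24.4 and 19.6 CPM in head kidney, a log2 fold change of -3.94 ± 0.38 (adjusted p = 9.55e-06). efcab1 stood at 1.98, 2.49, 1.62, 2.98 and 3.06 CPM and 5.34, 9.66, 20.5 and 12.1 CPM, a log2 fold change of -2.29 ± 0.38 (adjusted p = 0.000387). Their stage differences were -7.46 ± 0.60 (adjusted p = 1.41e-08) and -6.65 ± 0.51 (adjusted p = 8.41e-09). Intraflagellar transport genes, which build cilia of any cell, were higher in 7 of 9, against 34.3% of all genes, with a median of 1.05. ift88 among them was at 20.9, 20.7, 26.5, 20.5 and 22.6 CPM in testis and 17, 15.1, 9.26 and 13 CPM in head kidney (0.71 ± 0.19, adjusted p = 0.00841). Without head kidney 9 and head kidney 10 the list kept 4 calls and ift88 was not called. The stage difference of ift88 was -2.99 ± 0.30 (adjusted p = 1.77e-07).

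Cell division genes were mostly lower in testis. Of 35 replication and mitosis genes tested, 29 were called lower, against 31.3% of all genes, and 2 higher, with a median of -4.08. Every head kidney library was above every testis library for 29 of the 35, against 28.2% of all genes. Genes near 0 CPM in testis, such as foxm1, passed the filter through head kidney alone. For such genes a lower call was nearly fixed, so these shares are no independent support. mki67, the proliferation marker Ki-67, stood at 0.846, 0.131, 0.324, 0.611 and 2 CPM in testis and 526, 449, 220.0 and 313 CPM in head kidney, a log2 fold change of -8.90 ± 0.65 (adjusted p = 1.43e-06). foxm1, a transcription factor of mitosis, stood at 0, 0.131, 0.194, 0 and 0 CPM and 20.1, 18.2, 12.2 and 21.5 CPM, a log2 fold change of -7.89 ± 0.61 (adjusted p = 2.13e-06). Every head kidney library was far above every testis library for both.

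Of the 10 genes with the largest fold changes towards head kidney, several belong to division. kifc1, a mitotic kinesin, stood at 0.212, 0.0656, 0, 0.0764 and 0.532 CPM in testis and 107, 91.7, 94.9 and 127 CPM in head kidney (-9.14 ± 0.50, adjusted p = 2.7e-07), and ncaph, a condensin subunit, at 0 to 0.399 CPM and 60.1 to 78.5 CPM (-8.75 ± 0.46, adjusted p = 2.13e-07). e2f2, a transcription factor of the cell cycle, had 2 counts, and the cohesin protector gene sgo1 had 3 counts in all testis libraries together, and head kidney exceeded them by ratios of 845 (95% interval 234 to 6985) and 604 (95% interval 206 to 2934). In ocean testis mki67 was at 1228 to 1703 CPM, and its testis minus head kidney difference fell by 10.90 ± 0.70 (adjusted p = 1.19e-09) from ocean to spawning, that of foxm1 by -11.58 ± 0.62 (adjusted p = 1.91e-10).

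The exceptions were orc6, a part of the origin recognition complex, at 26.9, 40, 45.4, 34.1 and 20.8 CPM in testis and 12.2, 9.05, 11.6 and 11.7 CPM in head kidney (1.58 ± 0.24, adjusted p = 0.000205), and rrm2b, the ribonucleotide reductase subunit that resting cells use, at 17, 14, 19, 20.2 and 15.4 CPM and 0.0607, 0.0685, 0.853 and 0.733 CPM (5.28 ± 0.62, adjusted p = 3.74e-05). Both were higher in every testis library than in any head kidney library. Over the list, spawning testis summed to 183 to 327 CPM, head kidney to 1723 to 2670 CPM and ocean testis to 8368 to 9657 CPM.

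Genes of blood and immune cells were mostly lower in testis in 5 lists. Granulocyte and macrophage genes were lower in 14 of 15 tested, T and NK cell genes in 8 of 8 and B cell genes in 10 of 11. Thrombocyte genes were lower in 7 of 8 and progenitor genes in 6 of 7, all against 31.3% of all genes. No testis count was found for 2 of the tested T and NK cell genes and 1 of the B cell genes. Others, such as cebp1, lck and cd79b, had few testis counts. All of these passed the filter through head kidney alone. For such genes a lower call was nearly fixed, so these shares are no independent support. Among the genes of the 5 lists, the granulocyte factor gene cebp1 had the largest fold change. It stood at 0.141, 0.0656, 0.194, 0 and 0.0666 CPM in testis and 72.2, 76.1, 72 and 126 CPM in head kidney, a log2 fold change of -9.71 ± 0.40 (adjusted p = 8.76e-08). csf3r, the receptor of granulocyte colony-stimulating factor, stood at 49.8, 26.3, 39.2, 71.7 and 25.5 CPM and 1332, 1559, 1601 and 2101 CPM, a log2 fold change of -5.28 ± 0.36 (adjusted p = 9.69e-07). marco, a macrophage scavenger receptor, stood at 0.259 to 1.6 CPM and 180.2 to 289 CPM (-8.11 ± 0.48, adjusted p = 3.88e-07). None of these groups overlapped.

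The B cell receptor gene cd79b had 3 counts in testis and 17.1, 11.2, 31.2 and 35.4 CPM in head kidney, a ratio of 588 (95% interval 201 to 2853) in favour of head kidney. gzma, a granzyme of cytotoxic cells, had no count in testis and was at least 119-fold lower there, with 7.28, 3.08, 5.38 and 3.78 CPM in head kidney. The T cell kinase gene lck stood at 0, 0.197, 0, 0.153 and 0 CPM and 4.43, 3.15, 3.74 and 3.05 CPM (-5.55 ± 0.75, adjusted p = 0.000101). The leukocyte phosphatase gene ptprc (CD45) stood at 55.2, 24.5, 22.1, 50 and 26.2 CPM and 1739, 1696, 1516 and 1635 CPM, a log2 fold change of -5.53 ± 0.34 (adjusted p = 5.41e-07). The platelet receptor gene gp1bb, used here as a thrombocyte marker, was also lower (-3.20 ± 0.33, adjusted p = 1.4e-05).

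The members that ran the other way were bcl6b and f5. bcl6b, a transcriptional repressor also known from endothelium, stood at 32.9, 24.8, 28.6, 19.9 and 20.8 CPM in testis and 2.97, 3.29, 0.985 and 1.3 CPM in head kidney (3.57 ± 0.39, adjusted p = 2.1e-05). cd68, a lysosomal protein of macrophages, stood at 226, 296, 195, 308 and 209 CPM and 269.9, 514, 363 and 304 CPM and was not called (-0.56 ± 0.23, adjusted p = 0.0541). Its groups overlapped, and the other 14 tested genes of the granulocyte and macrophage list were all called lower.

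Granulocyte and macrophage genes were nevertheless more abundant in spawning than in ocean testis, in sum, while T and NK cell genes summed to 2.14 to 4.99 CPM in spawning and 0.937 to 7.18 CPM in ocean testis, which overlap. Summed over the granulocyte and macrophage list, ocean testis had 30.9 to 40.0 CPM, river testis 86.6 to 186 CPM and spawning testis 393 to 670 CPM, and head kidney had 4136 to 5021 CPM in ocean and 5732 to 6702 CPM in spawning fish. mpeg1.1, a pore-forming protein of macrophages, stood at 16.6, 9.25, 7.71, 13.6 and 5.66 CPM in spawning testis and 0.216 to 0.79 CPM in ocean testis. The testis minus head kidney difference was smaller in size at spawning, with a stage difference of 4.25 ± 0.48 (adjusted p = 7.21e-07) for mpeg1.1 and 4.22 ± 0.48 (adjusted p = 8.19e-07) for csf3r. For ncf1, a subunit of the phagocyte oxidase, it was 0.22 ± 0.31 (adjusted p = 0.559) and not called, with 3.17, 3.21, 2.07, 3.13 and 3.46 CPM in spawning testis and 2.23 to 3.86 CPM in ocean testis.

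Of 13 red cell genes tested, 6 were lower and 2 higher, against 31.3% and 34.3% of all genes. hemgn, a factor of red cell formation, stood at 4.02, 8.66, 3.63, 5.88 and 10.8 CPM in testis and 6.01, 27.9, 29.7 and 6.71 CPM in head kidney, overlapping, and its call (-1.41 ± 0.55, adjusted p = 0.0423) was lost in 6 of 9 fits that left out 1 library. hmbsb, an enzyme of haem synthesis, was higher in testis at 47.3, 56.2, 37.5, 37.7 and 32.8 CPM against 15.7, 12.8, 13.1 and 12.1 CPM (1.66 ± 0.19, adjusted p = 2.75e-05). Haem enzymes are made by all cells, so this gene marks no cell type.

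Immune signalling genes were also mostly lower in testis. Antigen presentation genes were lower in 7 of 8 tested and chemokine and interleukin genes in 12 of 17, against 31.3% of all genes, with 1 and 2 higher, against 34.3%. cd74b, the invariant chain of class II presentation, stood at 5.22, 7.61, 0.712, 4.58 and 2.6 CPM in testis and 121, 147, 238 and 69.5 CPM in head kidney (-5.11 ± 0.59, adjusted p = 3.38e-05), and cxcl12a, a chemokine that keeps blood stem cells in their niche, at 137, 96.3, 95.7, 112 and 138 CPM and 1334, 1766, 1383 and 1228 CPM (-3.62 ± 0.20, adjusted p = 3.06e-07). canx, the chaperone calnexin, was higher by 0.67 ± 0.18 (adjusted p = 0.00802), a call lost without head kidney 9 and head kidney 10 (0.46, adjusted p = 0.0913).

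Toll-like receptors differed from each other. tlr3, which detects double-stranded RNA, stood at 205, 184, 112, 179.9 and 139 CPM in testis and 78, 95.3, 61.4 and 103 CPM in head kidney, a log2 fold change of 0.96 ± 0.22 (adjusted p = 0.00338), with no overlap. tlr9, which detects bacterial DNA, had 1 count in testis against 10.6, 4.87, 8.53 and 18.4 CPM in head kidney, a ratio of 799 (95% interval 143 to 31602) in favour of head kidney.

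**Figure D4:**
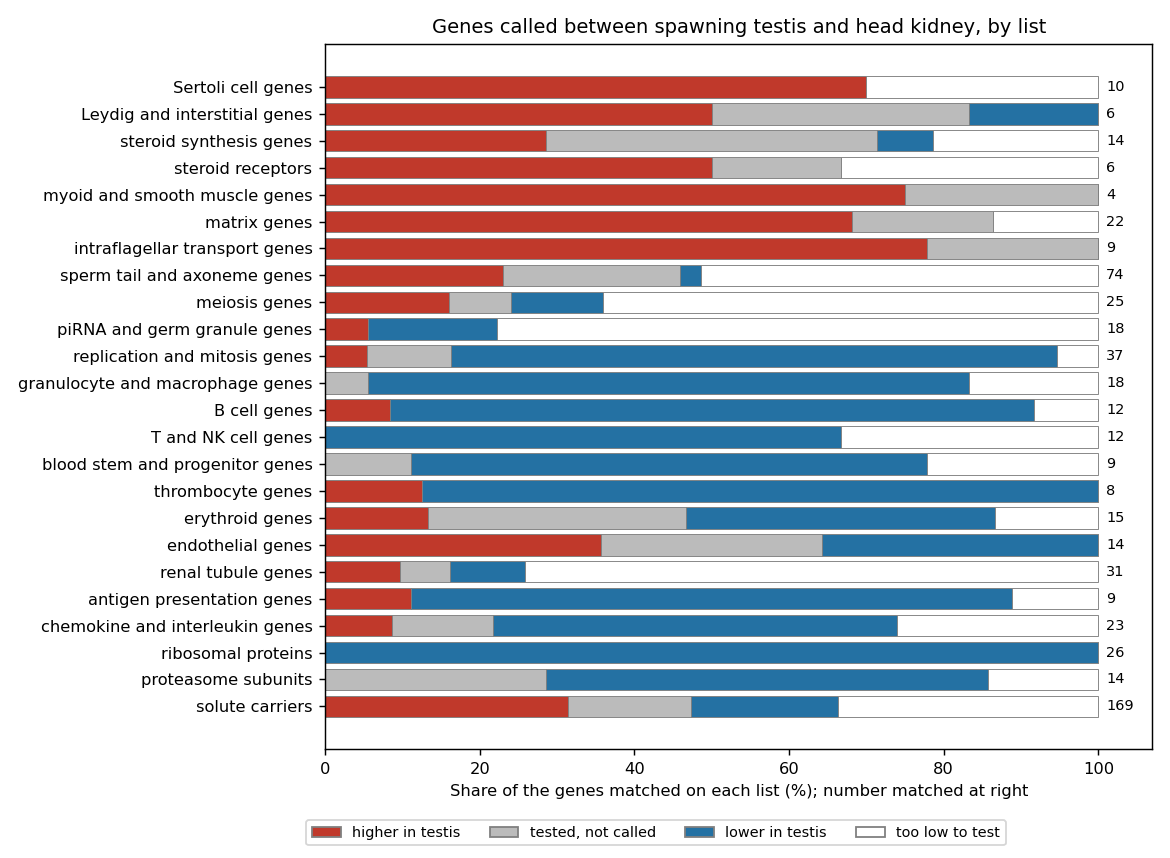
Share of the matched genes of 24 lists (x axis, %) that were called higher in spawning testis (red), called lower (blue), tested but not called (grey) or too low to test (white), with the number matched at the right. Sertoli cell and matrix genes have no lower call, all 26 ribosomal protein genes are lower in testis, and most meiosis and piRNA genes are white.

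Genes of protein synthesis and breakdown were mostly lower in testis. All 26 ribosomal protein genes tested were called lower, against 31.3% of all genes, with log2 fold changes around a median of -1.59. rps2 stood at 695, 875, 568, 511 and 658 CPM in testis and 2231, 1915, 2414 and 2054 CPM in head kidney (-1.70 ± 0.20, adjusted p = 3.38e-05), and rpl8 at 221, 258, 188, 168 and 217 CPM and 647, 607, 816 and 726 CPM (-1.73 ± 0.17, adjusted p = 1.28e-05). All testis values lay below all head kidney values for both. Proteasome subunit genes were lower in 8 of 12, against 31.3% of all genes, with 0 higher and a median of -0.80. In the test against a fold of 2 only 2 of the proteasome genes were called. Every spawning testis library was below every ocean testis library for 24 of 26 ribosomal protein genes and 12 of 12 proteasome genes, against 34.3% of all genes. Below every river testis library, the counts were 3 of 26 and 12 of 12, against 31.1%. In the test of the stage difference 12 of 26 ribosomal protein genes were called lower, 1 higher and 13 not called. All 12 proteasome genes were called lower there, against 25.5% of all genes in that test.

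Salmon genomes hold many genes in duplicate, and some genes whose symbols differ only in a final a or b went in opposite directions. Such symbols can also name distinct genes, as with hexa and hexb or rad9a and rad9b, so the pairs are not a count of duplicate copies. Of 164 such pairs with both tested, 20 (12.2%) were called in opposite directions, 47 in the same direction and 97 had 1 or both not called. Among all genes 34.3% were called higher and 31.3% lower, so unrelated genes also form opposite pairs. The count is therefore no result about these pairs. The mitochondrial carrier slc25a25a stood at 98.3, 76.7, 99.5, 74.9 and 98.3 CPM in testis and 1.64, 1.58, 1.51 and 1.58 CPM in head kidney (5.82 ± 0.17, adjusted p = 3.2e-08), and slc25a25b at 5.5, 2.95, 3.89, 2.44 and 2.46 CPM and 9.04, 8.43, 5.05 and 4.57 CPM (-0.97 ± 0.33, adjusted p = 0.0257). The transcription factor gene sox11a was higher (6.90 ± 0.65, adjusted p = 7.93e-06) and sox11b lower (-0.84 ± 0.29, adjusted p = 0.0286). Reads from near-identical copies may be shared out between them in the counts.

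The exocytosis gene stxbp5a was higher (6.78 ± 0.67, adjusted p = 1.09e-05) and stxbp5b lower (-0.80 ± 0.26, adjusted p = 0.0201). frem1a, of the basement membrane, stood at 116, 59.9, 103, 49.5 and 110.3 CPM in testis and 8.56, 7.95, 2.36 and 1.24 CPM in head kidney (4.13 ± 0.59, adjusted p = 0.000144), and frem1b at 0.776, 0.262, 0.324, 0.84 and 1.73 CPM and 4.37, 6.17, 5.38 and 5.08 CPM (-2.73 ± 0.50, adjusted p = 0.00075). The b copies of the first 3 pairs were the less certain side: the call was lost for slc25a25b in 5, sox11b in 4 and stxbp5b in 2 of 9 fits that left out 1 library. Another pair of distinct genes was c8a and c8b, which code for different chains of complement factor C8. c8a had 0, 0, 0, 0 and 0.466 CPM in testis and 8.25, 2.12, 3.28 and 8.63 CPM in head kidney (-5.76 ± 1.03, adjusted p = 0.000657), and c8b was the reverse, with 2 head kidney counts and a ratio of 48.7 (95% interval 13.2 to 407).

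**Figure D5:**
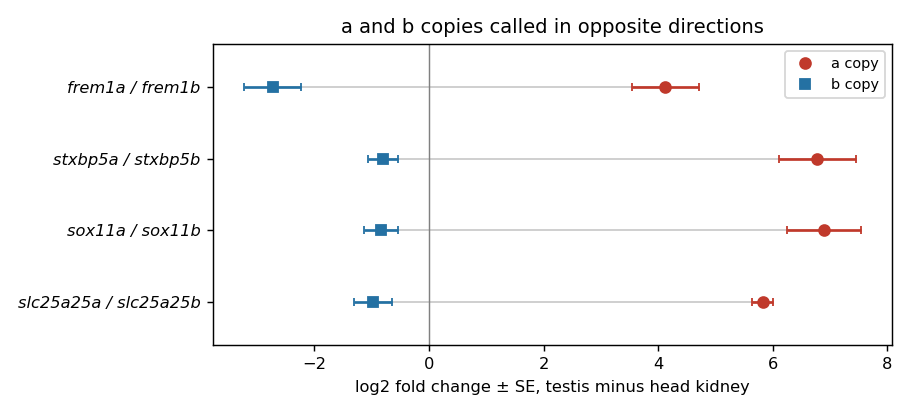
Log2 fold change of testis over head kidney (x axis, ± SE) for 4 gene pairs whose a copy (red circle) was called higher and whose b copy (blue square) was called lower in testis. The a copies lie between 4.13 and 6.90 and the b copies between -2.73 and -0.80.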

How the data were processed

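Expected counts, fractional estimates of the reads of each gene, were deposited by the authors without scaling, in 1 column per library. The submitters' processing notes name Salmon 1.8.0 and Trim Galore 0.6.4, and R in version 4.3.3. Their roles, the genome build, the annotation and strand use are not given in the sources used here. Of 40756 genes, 8117 have a symbol and 32639 only a LOC number, and 2 gene names had become dates. Rounding for the tests touched the 39.4% of values that were fractional in the 9 libraries. The smallest chi-square per gene among 16 pairs of libraries was 21.7, so none was a copy of another.

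edgeR 4.0.16 in R 4.3.3 was used with filterByExpr by group, TMM scaling and the 2-sided quasi-likelihood test, separately for testis minus head kidney (9 libraries), the same difference at spawning minus that in ocean fish (with 9 ocean libraries added), and testis minus muscle (with 3 muscle libraries added to the 9). An adjusted p under 0.05 is a call. On simulated data 67.5%, 45.5% and 52.0% of 200 genes changed by a fold of 4 were recovered among 26280, 30011 and 28073 genes. Of the simulated calls 4.93%, 7.14% and 2.80% were genes left unchanged. All other genes were unchanged there, while 65.6% were called between testis and head kidney in the data. The recovery therefore need not carry over to the data. Where a group had no count, folds are bounds against a floor of 3 counts over the group, and with 1 to 3 counts ratios carry exact binomial 95% intervals. CPM of other libraries use TMM factors against the same reference and totals over the same 26280 genes. Genes not tested between spawning testis and head kidney, such as sycp3, are outside these totals. This raises the CPM of ocean, river, ovary and muscle libraries relative to their full totals. The libraries compared and the 43 gene lists, matched by symbol, were chosen with earlier results of these data known. The rule for named genes took the 10 largest changes each way among symbol genes that averaged log2 CPM 3 or more and had separate groups, up to 3 called genes per list and direction, members of lists of at most 12 tested genes, key genes, the leading pairs of copies with opposite calls, and the leading genes of the stage and muscle comparisons. It gave 287 genes, and the text describes some of them. Outside this rule, and chosen after their values were seen, were col6a1, fbn1, fn1a, col1a2, sparc, mpeg1.1, csf3r, marco, cd68, ptprc, kdr, rps2, rpl8, smc1b, spag17, tekt2, spaca6, nos1 and slc1a1. No row was matched for gsdf, sox9a, cyp11c1, cyp21a2, mc2r, dazl, tekt1, catsper1, izumo1, ar, mpx and zap70. Other settings tried were DESeq2 1.42.0, scaling by RLE or by library size, testing unfiltered genes, other sets of libraries, library number as a block, a test against a fold of 2 and leaving out each library.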

Additional observations from a re-analysis of the deposited data

Results flagged for a closer look

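In 19 of 234 groups of 4 or 5 libraries, 1 library stood apart from the others in its group on the scale log2(CPM + 0.5). For normally distributed values chance flags about 1 in 20 groups. A library with counts where the others of its group have 0 is always flagged, so that rate cannot be set against the 19. In head kidney 10 the flagged genes were nr5a1b (40.6 CPM), cebp1 (126 CPM, the highest) and piwil1 (0.169 CPM). In head kidney 9 they were amh (14.0 CPM), slc34a1a (5.38 CPM), pkd1b (0.0656 CPM) and slc2a6 (104 CPM, the highest). In head kidney 7 they were cftr and asz1 (0.0685 CPM each) and orc6 (9.05 CPM, the lowest), and in head kidney 6 stab2 (380.5 CPM, the lowest), tdrd5 (0.243 CPM) and spag17 (0.668 CPM). Among testis libraries, testis 8 was lowest for pgr (25.9 CPM) and ncf1 (2.07 CPM) and highest for asz1 (2.98 CPM), testis 7 was highest for scg3 (48.9 CPM), testis 6 for tlr9 (0.0705 CPM) and testis 10 for c8a (0.466 CPM). Values under 0.3 CPM rest on 1 to 4 counts.

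The stage difference, tested for 27 genes picked from those in the text, was called for 25, while 63.8% of all 30011 genes were called in that test, so the count is no result about these genes. On the log2 scale it was larger at spawning for star (9.53), lhcgr (8.64), dhh (6.32), fshr (6.09), esr2a (7.08) and esr1 (5.02), for the transport and coagulation genes slc34a1a (14.5), slc6a8 (13.2), f5 (10.4) and lrp2a (5.86), for the matrix and vessel genes col6a1 (4.65), fbn1 (4.32), stab2 (4.16) and pecam1a (4.98), and for the leukocyte genes mpeg1.1 (4.25) and csf3r (4.22). It was lower at spawning for the germ cell, axoneme and cilium genes ddx4 (-10.99), dmc1 (-7.99), msh5 (-3.60), cfap43 (-7.46), efcab1 (-6.65) and ift88 (-2.99), for the division genes mki67 (-10.90) and foxm1 (-11.58), and for igf3 (-1.99). The values of star rest on 1 ocean head kidney library.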

How the results depend on the processing

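Of 17245 calls between testis and head kidney, RLE scaling kept 17190 in the same direction and library size alone 17000. DESeq2 kept 17204 and no filter 16570. No called gene was called in the opposite direction in any alternative fit of this comparison. A test against a fold of 2 called 10211 genes, 5770 higher and 4441 lower. Leaving out 1 library gave 16059 to 16935 calls (8262 to 8833 higher, 7750 to 8267 lower), for the stage difference 18467 to 20121 (10231 to 11456 higher, 7257 to 9220 lower) and for testis against muscle 17293 to 19498 (9577 to 11432 higher, 7551 to 8066 lower). Against muscle, library size alone called 16929 higher and 4291 lower, and 419 of the calls turned. With river in place of ocean fish, 18 of the stage calls turned.

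Equal library numbers deviated together with correlations of 0.22, -0.17, 0.0095 and 0.022, and not every library correlated best with its own number. These correlations cannot decide whether equal numbers mark 1 fish, and the labels do not state it. Within each stage, however, no number occurs in both sexes. The main fit did not use the numbers for pairing, so it treats libraries of 1 fish as independent if the numbers mark fish. With the number as replicate block 15134 genes were called between testis and head kidney (7919 higher, 7215 lower) and 16677 for the stage difference (9958 higher, 6719 lower).

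Of 98 called genes checked, most of them named in the text, 86 were tested in all 9 fits that left out 1 library and kept the call in each. ptch1 was not among the genes checked. A further 3 (inhbaa, wt1b and c8b) kept it in the 5 fits in which they passed the filter. The stage difference of star ran from -1.55 (reversed, without ocean head kidney 9) to 14.98 (without spawning head kidney 10) when 1 library was left out, and missed the threshold with the number as block (5.39, adjusted p = 0.232) and with river fish (4.20, adjusted p = 0.163), and that of amh was 2.36 (adjusted p = 0.087) with all libraries. Fits without head kidney 9 and head kidney 10 (15951 calls), and without testis 10 as well (15510 calls), were added after seeing the data. Depth limits the lowest genes: 1 count was worth about 0.06 CPM, and intervals and floors cover counting error only.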

Other observations

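Genes named for skeletal muscle fibres were present in spawning testis. Of 14 matched genes 4 could be tested and 3 were higher in testis than in head kidney, against 34.3% of all genes tested. Summed levels were 154 to 277 CPM in testis and 5.89 to 11.7 CPM in head kidney. neb, which codes for nebulin, stood at 87.3, 150.1, 139.5, 81.4 and 118 CPM in testis and 0.789, 0.274, 1.9 and 1.02 CPM in head kidney (6.84 ± 0.48, adjusted p = 1.05e-06), with 1.4 to 7.53 CPM in ocean testis and 38 to 333 CPM in spawning muscle. eno3, the muscle form of enolase, stood at 104, 122, 55.8, 67.4 and 58.9 CPM in testis and 2.43, 2.47, 6.5 and 7.95 CPM in head kidney (4.07 ± 0.46, adjusted p = 2.65e-05), and at 10.3 to 14 CPM in muscle, below every testis library.

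slc1a1, a glutamate transporter, stood at 237, 121, 108, 84 and 106 CPM in testis and 0.728, 0.343, 0.328 and 0.395 CPM in head kidney (8.16 ± 0.46, adjusted p = 3.06e-07). Among the channels and transporters higher in head kidney, the potassium channel gene kcnj15 stood at 2.33, 0.919, 4.99, 4.74 and 1.46 CPM in testis and 138, 139, 164 and 168 CPM in head kidney (-5.72 ± 0.47, adjusted p = 2.9e-06). The sugar transporter gene slc2a6 stood at 6.28, 5.38, 3.37, 5.96 and 3.93 CPM and 79.5, 82.2, 104 and 81.5 CPM (-4.12 ± 0.21, adjusted p = 2.02e-07). rbp4, the retinol carrier of plasma, stood at 15.8, 24.4, 17.3, 18.4 and 35.8 CPM in testis and 312, 532, 468 and 176 CPM in head kidney (-4.06 ± 0.38, adjusted p = 6.99e-06). Each of these genes had groups that did not overlap.

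scg3, a protein of secretory granules, was at 0.141, 48.9, 0.194, 0.535 and 0.2 CPM in testis and 0.546, 58.9, 1.64 and 0.677 CPM in head kidney, so it was high in testis 7 and head kidney 7 and below 2 CPM in the others. It was not called (-0.62 ± 1.84, adjusted p = 0.78). Whether the equal number marks 1 fish is not in the labels.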
